A study of Homo sapiens with 6 samples.

Results

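SMAD4 and 7 of its neighbours on the long arm of chromosome 18, band 18q21, were followed through 6 RNA-sequencing libraries. The 8 genes are MBD1, CXXC1, SKA1, ME2, SMAD4, MEX3C, MBD2 and POLI, in chromosomal order. They were taken by name, as SMAD4 and listed neighbours, from a table of 56505 rows, and all 8 passed the filter on low counts. SMAD4 was selected on its low shControl count in these libraries and on its reported deletion, and the others by position around it, so the levels of the 8 genes and their differences are given as a description, with no test. The libraries came from cells labelled MDA-MB-468, a basal-like human breast cancer line without hormone receptors or HER2 amplification. In 3 libraries the cells carried the plasmid pLK0-shControl, a control short hairpin RNA (shControl here). In the other 3 they carried a plasmid titled shCK5-22, with a hairpin against cytokeratin 5 (shCK5 here), the product of KRT5. Both kinds of cell were cultured alike, in medium with serum. A single hairpin against KRT5 was sequenced, and no label says whether the replicates were separate cultures, so every SD, SE and p measures only the spread between libraries, which may be technical.

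SMAD4 encodes the common mediator of TGF-beta and BMP signalling. Ligand-bound receptors phosphorylate receptor SMADs, which bind SMAD4, enter the nucleus and act on target genes. SMAD4 is a tumour suppressor gene, deleted in many pancreatic and colorectal cancers, and it is reported as deleted in MDA-MB-468. Its neighbours have unrelated jobs. MBD1 and MBD2 encode readers of methylated CpG dinucleotides, and CXXC1 encodes a reader of unmethylated CpG that belongs to the SET1 histone methyltransferase complex. SKA1 is a kinetochore protein, ME2 the mitochondrial NAD-dependent malic enzyme, MEX3C an RNA-binding ubiquitin ligase and POLI a translesion DNA polymerase. When a chromosome segment is lost, genes on both sides of a tumour suppressor can be lost with it, so the levels of neighbours mark how far a silent stretch reaches.

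Library totals lay between 68810882 and 83594772 counts. Levels are in counts per TMM-scaled library, on the usual CPM scale, with the mean ± SD of 3 libraries. Differences are on the log2 scale, shCK5 minus shControl, with their standard error (SE) from edgeR. KRT5, the gene targeted, stood at 2044 ± 23.3 CPM in shControl and 16.4 ± 0.845 CPM in shCK5. The summed level of 5 epithelial markers was 4859 to 4960 CPM in shControl and 1347 to 1372 CPM in shCK5. That of 5 basal markers, KRT5 among them, was 6064 to 6236 and 812.3 to 840.5 CPM, and that of 5 mesenchymal markers 55.9 to 59.7 and 1291 to 1312 CPM. Abundant genes carry these sums: VIM, at 987.2 CPM, made up most of the mesenchymal sum in shCK5, where CDH2 stood at 0.820 CPM. Single epithelial markers were lower in shCK5 by 2.03-fold (KRT18) to 30.9-fold (CDH1). Fibroblast, leukocyte and endothelial markers summed to at most 13.96, 1.664 and 6.941 CPM in any library, with CD68 at 0 throughout. The difference in epithelial and mesenchymal markers went with every result below, and its part in them was not tested. Of 19567 genes tested by edgeR's quasi-likelihood test at an adjusted p of 0.05, 82.7% passed, 41.7% lower and 40.9% higher in shCK5, so a passed test alone sets no gene apart here. Genes said to rise or fall passed that test and were higher or lower in shCK5 than in shControl.

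The 250 bases before the RefSeq start of SMAD4 and of MEX3C, its nearest detected neighbour on the far side, are shown because SMAD4 and its neighbour there differed in opposite directions. They are RefSeq sequences on GRCh38.p14, read 5′ to 3′ on the strand of the gene, with CpG dinucleotides (CG) in capitals. The SMAD4 window is chr18:51029963-51030212 on the plus strand and the MEX3C window chr18:51197682-51197931 on the minus strand. Both lie inside the longer gene spans of GENCODE v29 given below, in no annotated exon of that set.
SMAD4: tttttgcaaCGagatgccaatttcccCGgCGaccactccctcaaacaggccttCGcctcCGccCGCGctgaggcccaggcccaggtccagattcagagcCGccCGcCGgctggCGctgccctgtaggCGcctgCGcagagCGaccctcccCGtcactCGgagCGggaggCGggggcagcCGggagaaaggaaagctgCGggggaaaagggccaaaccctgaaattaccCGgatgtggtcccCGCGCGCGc
MEX3C: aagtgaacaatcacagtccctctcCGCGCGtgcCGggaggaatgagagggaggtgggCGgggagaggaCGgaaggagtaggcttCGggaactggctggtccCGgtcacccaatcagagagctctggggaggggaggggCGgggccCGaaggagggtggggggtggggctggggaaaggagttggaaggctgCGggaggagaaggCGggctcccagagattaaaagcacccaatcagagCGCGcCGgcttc
The SMAD4 and MEX3C windows held 25 and 15 CpG dinucleotides, and the windows of all 8 genes between 15 and 27, against a median of 11 in 35116 RefSeq windows of the same length. A GC box, GGGCGG on either strand, was found in 5 of the 8 windows (SKA1, ME2, SMAD4, MEX3C and MBD2) and in 42.6% of all windows. The window of SMAD4, whose level differed most between the groups, thus lay within the range of the other 7 by its CpG count. These counts describe the reference sequence. The cells' own sequence and its methylation were not measured.

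SMAD4 (ENSG00000141646.13, chromosome 18, 51028394 to 51085045, plus strand, GRCh38, protein-coding) was close to silent in shControl and plainly transcribed in shCK5. The shControl libraries held 24, 6 and 22 SMAD4 counts, or 0.322, 0.0752 and 0.307 CPM. The shCK5 libraries held 1295, 1285 and 1259 counts, or 16.3, 16.9 and 17.4 CPM. The groups were far apart, and within shControl replicate 2 stood 4.28-fold below replicate 1. The means, 0.235 ± 0.138 CPM and 16.9 ± 0.547 CPM (SD, n = 3 each), lay 71.8-fold apart, a log2 difference of 6.18 (SE 0.160). Without shControl replicate 2 the log2 difference was 5.74. Taken over the groups, 52 counts against 3839, the shControl level was 1.37% of that in shCK5 (exact 95% interval 1.02% to 1.80%, which covers counting error only). The 3 shControl counts were all even numbers, as were 63.1% to 65% of all counts above 20, and if both mates of a fragment were counted the interval is too narrow. In bulk RNA, few cells with a normal SMAD4 level and little SMAD4 RNA in every cell cannot be told apart. The libraries labelled shCK5 thus carried transcripts of a gene reported as deleted in the labelled line, and no DNA data were used here to check the cells.

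Among genes with coordinates, the low stretch around SMAD4 in shControl held SMAD4 and no other detected gene. A gene was called detected with a mean of at least 1 CPM in a group, and low with a shControl mean below 1 CPM. ME2, the nearest detected gene before SMAD4, ends 74.1 kb ahead of it. MEX3C, the nearest one after SMAD4, has its near edge 89.5 kb beyond the end of SMAD4. ME2 stood at 50.1 ± 2.28 CPM and MEX3C at 42.8 ± 1.24 CPM in shControl, both higher there than in shCK5. Both edges of the low stretch therefore lie in the 220.3 kb between ME2 and MEX3C, as far as detected genes can place them. With cut-offs of 0.5 and 2 CPM, both far below ME2 and MEX3C, the stretch also held this 1 gene among genes with coordinates. A row with no coordinates, RP11-729L2.2, described next, would join it if 0.5 CPM in a group counted as detected. Gene counts say nothing on where within SMAD4 its few shControl reads fell.

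**Figure D1:**
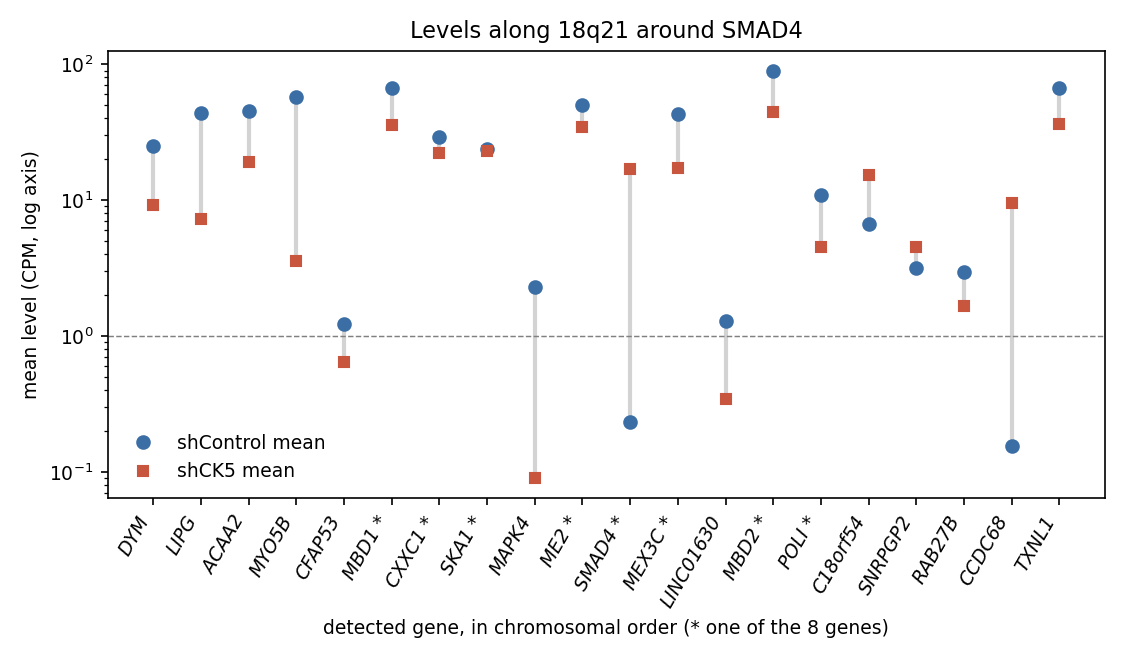
Mean level in CPM (log axis) of 20 detected genes of 18q21 in chromosomal order, from the 5 genes before MBD1 to the 5 after POLI. Circles are shControl and squares shCK5 means of 3 libraries, and the dashed line is 1 CPM. SMAD4, at 0.235 CPM, is below the line in shControl between ME2 and MEX3C at 50.1 and 42.8 CPM, and CCDC68 is the other gene below it.

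Between ME2 and SMAD4 lies ELAC1, which encodes a tRNA 3′-end processing enzyme. Its row was at 0 in all 6 libraries, and 91.5% of its annotated exon bases lie in no other annotated gene. Well-expressed genes such as JUNB and MDH1 are also listed at 0 in every library, so the 0 of ELAC1 was not read as lack of expression, and ELAC1 says nothing of the left edge. The row named RP11-729L2.2 stands between ELAC1 and SMAD4 in the table, in which 99.5% of successive rows matched to chromosome 18 follow chromosomal order. That name had no match in the annotation used, so no coordinates are given. It had 4, 2 and 0 counts in shControl and 96, 60 and 60 in shCK5, or means of 0.0262 and 0.942 CPM. Its log2 difference was 5.07 (SE 0.508, edgeR adjusted p = 1.57e-09), and 5.997 without shControl replicate 1. The row was chosen after its values were seen, so its adjusted p is no support. With 6 shControl counts in all, it passed the low-count filter only through shCK5. Whether it is a transcript that reads through into SMAD4, so that its counts are SMAD4 counts and not those of another gene, was not tested. The pseudogene SRSF10P1, between SMAD4 and MEX3C, had 4, 1 and 2 counts in shControl and none in shCK5, at most 0.0537 CPM in a library, too few to place the right edge. Of SMAD4's own exon bases 92.6% lie in no other annotated gene, and reads on the shared bases may have been assigned elsewhere or dropped.

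The 7 neighbours were all well above 1 CPM in shControl. In 6 of them every shControl library was above every shCK5 library, and in SKA1 the groups overlapped. Of all genes tested, 84.2% had groups that did not overlap, 42.6% in this direction and 41.6% in that of SMAD4. Nothing is read from the members' own count, since the members were chosen with this contrast in view. The median log2 difference of the 8 genes was -0.71, against -0.02 for all genes tested.

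Among the readers of CpG, MBD2 (54151601 to 54224788, minus strand), a repressor that recruits the NuRD complex to methylated DNA, was the most abundant. Its shControl libraries stood at 86.5, 90.1 and 90.8 CPM, and its shCK5 libraries at 46.3, 44.0 and 43.6 CPM, with no overlap. This was a 2.00-fold lower mean, with a log2 difference of -0.998 (SE 0.0349). MBD1 (50266882 to 50281774, minus strand), the repressor with both a methyl-CpG domain and CXXC zinc fingers, had 68.0, 63.0 and 69.8 CPM in shControl. Its shCK5 libraries were nearly equal, at 35.9, 36.0 and 36.0 CPM, a log2 difference of -0.90 (SE 0.0394). CXXC1 (50282343 to 50288304, minus strand) ends next to the start of MBD1 and differed less. It had 27.9, 29.6 and 30.5 CPM in shControl and 22.6, 23.3 and 20.4 CPM in shCK5, a log2 difference of -0.41 (SE 0.0520). The 3 readers were thus lower by different amounts, 1.33-fold for CXXC1 and 1.86-fold for MBD1, although CXXC1 and MBD1 are adjacent.

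SKA1 (50374995 to 50394173, plus strand), which couples kinetochores to microtubules in mitosis, was the neighbour that barely differed. It had 22.6, 24.9 and 23.9 CPM in shControl and 23.3, 22.7 and 23.0 CPM in shCK5. The ranges overlapped, and the log2 difference was -0.05 (SE 0.0489). ME2 (50878734 to 50954257, plus strand), which turns malate into pyruvate in mitochondria, had 48.9, 52.7 and 48.6 CPM in shControl and 34.6, 35.6 and 34.0 CPM in shCK5. The groups did not overlap and the log2 difference was -0.53 (SE 0.0406).

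On the far side of SMAD4, MEX3C (51174550 to 51218304, minus strand) had 41.4, 43.5 and 43.5 CPM in shControl and 17.8, 17.9 and 15.8 CPM in shCK5. Its groups did not overlap, and its log2 difference was -1.31 (SE 0.0495), 2.49-fold lower and within 1 SE of that of POLI. POLI (54269404 to 54321266, plus strand), which inserts bases opposite damaged DNA, was the least abundant neighbour. It had 10.8, 11.2 and 10.9 CPM in shControl and 4.60, 4.35 and 4.65 CPM in shCK5, a log2 difference of -1.27 (SE 0.0780). The 3 genes after SMAD4 were lower by 2.00-fold to 2.49-fold, and the means of the 4 before it by 1.04-fold to 1.86-fold, SKA1 with overlapping groups. SMAD4, at 6.18 on the log2 scale, stood between these runs with the opposite sign.

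**Figure D2:**
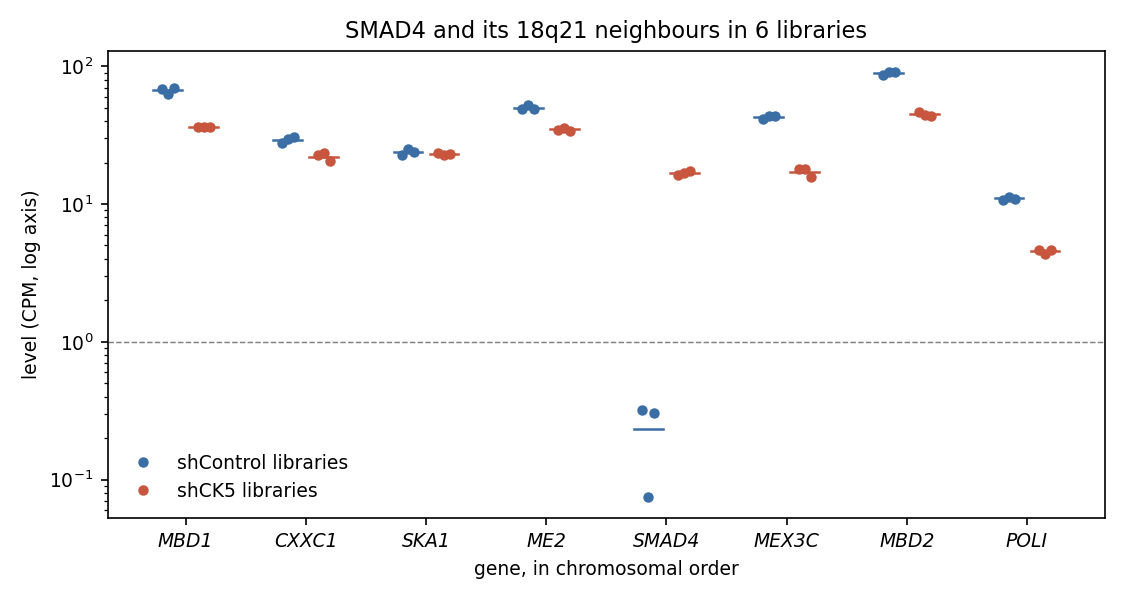
Level in CPM (log axis) of the 8 genes in each library, in chromosomal order. Points are libraries, short bars the mean of 3 and the dashed line 1 CPM. The SMAD4 points of shControl lie between 0.0752 and 0.322 CPM, whereas those of its 7 neighbours all lie above 10 CPM.

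Per kilobase of annotated exon, the order of the genes differed between the groups. In shControl the mean level was highest for MBD2, at 15.4 CPM per kb, followed by MBD1 at 9.94, SKA1 at 8.07, CXXC1 at 6.79, MEX3C at 5.72, ME2 at 3.08, POLI at 1.16 and SMAD4 at 0.0179 CPM per kb. Each neighbour in that order differed from the next by more than 1 SD of the libraries. In shCK5, SKA1 led with 7.80 CPM per kb and MBD2 followed with 7.68, then MBD1 with 5.34, CXXC1 with 5.12, MEX3C with 2.30, ME2 with 2.14, SMAD4 with 1.285 and POLI with 0.479 CPM per kb. There SKA1 and MBD2, MBD1 and CXXC1, and MEX3C and ME2 differed by less than 1 SD. SMAD4 was thus last of the 8 in shControl and above POLI in shCK5. The lengths join all annotated exons of a gene, so they can exceed those of single transcripts, and they were longest for ME2 and SMAD4, with 16243 and 13123 bases. Leaving SMAD4 aside, the coefficient of variation between libraries of a group was at most 7.02%, while that of SMAD4 in shControl was 58.9%.

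Other detected genes between MBD1 and POLI were also higher in shControl. MAPK4, an atypical MAP kinase gene between SKA1 and ME2, fell from 2.31 ± 0.407 to 0.0908 ± 0.0440 CPM, a log2 difference of -4.63 (SE 0.301, adjusted p = 3.34e-13 by edgeR). The non-coding LINC01630, just beyond MEX3C, fell from 1.29 ± 0.320 to 0.344 ± 0.0799 CPM (log2 difference -1.90, SE 0.274, edgeR adjusted p = 7.06e-07). DCC, the netrin receptor gene once proposed as the tumour suppressor of 18q21, stood at 0.330 ± 0.125 CPM in shControl and at 0.436 ± 0.1001 CPM in shCK5 (log2 difference 0.40, SE 0.362, edgeR adjusted p = 0.305). Its low level in both groups gives no sign of where the low stretch ends. In all, 28 rows were matched inside this 4.05 Mb interval, of which 10 were detected and 13 had no count in any library.

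Before MBD1, the 5 nearest detected genes all fell. MYO5B, which encodes a motor of apical vesicle transport, went from 57.6 ± 0.678 to 3.57 ± 0.209 CPM (log2 difference -4.01, SE 0.0543) and LIPG, which encodes endothelial lipase, from 43.9 ± 1.75 to 7.28 ± 0.374 CPM (-2.59, SE 0.0540). DYM, ACAA2 and CFAP53 had log2 differences of -1.45, -1.23 and -0.91, and the edgeR adjusted p of these 5 genes was at most 0.00156. Beyond POLI, C18orf54 rose from 6.72 ± 0.526 to 15.3 ± 0.178 CPM, and the pseudogene SNRPGP2, whose reads may come from its parent gene, rose by 0.51 on the log2 scale. RAB27B and TXNL1 fell, with log2 differences of -0.83 and -0.87. CCDC68 rose, with 0.107, 0.251 and 0.112 CPM in shControl and 10.2, 9.57 and 8.79 CPM in shCK5 (log2 difference 5.89, SE 0.179, edgeR adjusted p = 3.78e-20). CCDC68 has its near edge 3.87 Mb from the start of SMAD4. Its detected neighbours RAB27B and TXNL1 were at 2.96 and 66.4 CPM in shControl. CCDC68 thus repeated the SMAD4 pattern of a single low gene between expressed ones.

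Most of chromosome 18 leaned the same way as the neighbours of SMAD4. Outside the interval from MBD1 to POLI, 218 tested genes were matched to chromosome 18. Of these, 134 fell (61.5%, against 41.7% of all genes tested), 55 rose and 29 did not pass edgeR's test, with a median log2 difference of -0.65. Before the interval 95 of 148 fell and 35 rose, and after it 39 of 70 fell and 20 rose. Within 5 Mb before it, 15 of 19 fell, and within 5 Mb after it, 12 of 17 fell. Farther off the lean was not kept. From ROCK1, 30.08 Mb before SMAD4, to RNF165, 4.70 Mb before it, genes rose about as often as they fell. The lower levels of the 6 neighbours therefore did not stand apart from the genes within 5 Mb of the interval. No test of the chromosome as a set was made.

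**Figure D3:**
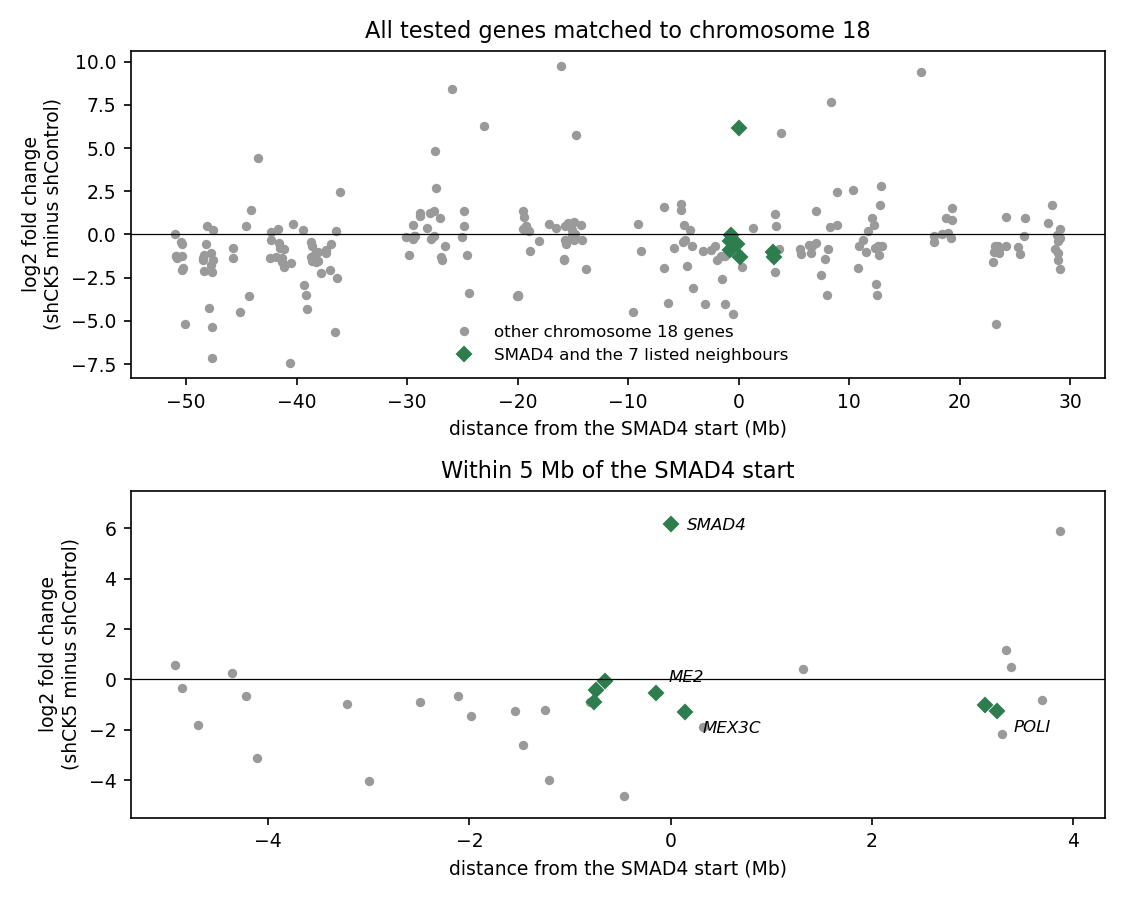
Log2 difference, labelled fold change (shCK5 minus shControl) of tested genes against their distance from the start of SMAD4 in Mb, for all of chromosome 18 (top) and within 5 Mb (bottom). Diamonds are the 8 genes and grey points other genes. SMAD4 stands at 6.18 between ME2 at -0.53 and MEX3C at -1.31, and most grey points lie below 0.

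Genes below 1 CPM in shControl and at or above it in shCK5 were spread along the chromosome, mostly as single genes. On chromosome 18, 14 tested genes (6.11%) had a shControl mean below 1 CPM and a shCK5 mean of at least 1 CPM, against 5.69% of all genes tested. In 12 of the 14, SMAD4 among them, neither detected neighbour was low, and the other 2 were the adjacent SERPINB2 and HMSD. Of the 14, 13 passed edgeR's test as higher, and GACAT2, at 0.942 and 1.04 CPM with overlapping groups, did not. The cut-offs themselves pick genes higher in shCK5, so these passes are no added evidence. Those with the most RNA in shCK5, chosen after their values were seen, were FHOD3, a formin gene, CCBE1, MAPRE2, which encodes a microtubule end-binding protein, ANKRD29, SMAD4 and CCDC68. CCDC68 was the lowest of these, at 9.53 CPM in shCK5. The remaining genes stood at 1.03 to 3.56 CPM there, several of them close to the cut-off. FHOD3 rose from 0.743 ± 0.232 to 39.95 ± 1.87 CPM, and CCBE1, needed for lymphatic vessel growth, from 0.160 ± 0.0715 to 32.6 ± 0.466 CPM. MAPRE2 rose from 0.0346 ± 0.0300 to 32.3 ± 1.27 CPM on 8 shControl counts. The share of such genes on chromosome 18 was close to that over all genes.

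The rest of the SMAD family moved in both directions, and its 18q21 members fell. SMAD2 and SMAD7 lie 3.22 and 2.11 Mb before SMAD4. SMAD2, a receptor SMAD of the TGF-beta branch, had 75.5, 78.9 and 83.2 CPM in shControl and 39.8, 40.3 and 40.9 CPM in shCK5, without overlap (log2 difference -0.97, SE 0.0376, edgeR adjusted p = 6.1e-18). SMAD7, the inhibitory SMAD that TGF-beta itself induces, fell from 13.2 ± 0.992 to 8.37 ± 0.136 CPM (-0.66, SE 0.0710, edgeR adjusted p = 5.88e-09). SMAD3, the other TGF-beta receptor SMAD, on chromosome 15, rose from 58.6 ± 0.818 to 318.8 ± 4.58 CPM (2.44, SE 0.0287, edgeR adjusted p = 1.06e-28). Of the BMP branch, SMAD5 rose by 0.91 and SMAD9 by 3.70 on the log2 scale, the latter from 0.207 CPM, whereas SMAD1 fell by 3.57. SMAD6, the inhibitor of the BMP branch, fell by 2.15. In total 3 of 7 rose and 4 fell, with a median of -0.66. Over all lists of partners, this one and those below, 47 of 113 tested genes rose (41.6%) and 54 fell (47.8%), each gene counted once. The shares over all genes tested were 40.9% and 41.7%, so the partners as a whole were close to them. The counts of single lists are descriptions to be read beside these shares.

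Upstream of the SMADs, 2 of 9 tested ligand genes rose and 5 fell (median log2 difference -0.49). BMP7 fell from 42.6 ± 0.445 to 0.835 ± 0.135 CPM, INHBB, an activin subunit gene, from 84.0 ± 3.75 to 7.48 ± 0.626 CPM, and BMP4 rose from 6.16 ± 0.340 to 73.6 ± 4.32 CPM. Among 11 receptor genes 4 rose and 6 fell (median -0.29). TGFBR2, which binds TGF-beta and activates the type I receptor, rose from 38.1 ± 1.51 to 173.9 ± 1.58 CPM, its co-receptor gene TGFBR3 from 11.8 ± 0.792 to 32.8 ± 0.843 CPM, and the co-receptor gene ENG fell from 19.98 ± 1.197 to 1.70 ± 0.299 CPM. Of 9 SMAD regulators 4 rose and 4 fell (median 0.01). SMURF2, a ubiquitin ligase of receptors and SMADs, rose by 2.85 and PMEPA1, an inhibitor that TGF-beta induces, by 0.97 on the log2 scale. TGIF1, a SMAD corepressor gene on the other end of chromosome 18, fell by 2.16.

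Most of the listed target genes of the pathway rose, and whether the SMAD4 level had a part in this was not tested. Of 10 tested targets, 8 rose and 2 fell, where 40.9% and 41.7% of all genes tested did. The median log2 difference was 0.94 against -0.02 over all genes tested. By library size alone 7 rose and 2 fell, as CDKN1A, a cell cycle inhibitor gene, no longer passed. TGFBI, a secreted matrix protein gene, rose from 25.9 ± 1.27 to 130.6 ± 1.34 CPM. ID2, a BMP target that TGF-beta represses in epithelial cells, fell from 6.12 ± 0.297 to 1.24 ± 0.116 CPM. ID1 and ID3, in the same list, went the other way and rose by 1.58 and 0.81 on the log2 scale. CDKN2B and JUNB were listed at 0 in all libraries and were not tested. Mesenchymal markers were higher in the same libraries, as given above, and several of these targets are also expressed in mesenchymal cells.

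Genes of the methyl-CpG domain family and of the NuRD complex moved in both directions, whereas those of the CXXC family mostly fell. Of 9 other methyl-CpG domain genes 2 rose and 4 fell (median -0.10), and by library size alone 2 rose and 7 fell. MBD3, the NuRD subunit related to MBD2, rose from 60.2 ± 1.65 to 150.1 ± 2.59 CPM, against the lower MBD2 level, while BAZ2B and MBD5 fell by 1.95 and 1.17 on the log2 scale. In the NuRD complex 3 of 12 genes rose and 8 fell (median -0.40), or 2 and 9 by library size alone. RBBP7, a histone-binding subunit gene, rose by 1.15 and MTA3 fell by 1.05. Of 10 other CXXC zinc finger genes 9 fell and none rose, with KDM2A, at 0.04, not passing (median -0.98). Of all genes tested, 41.7% fell. Among the 9, CXXC4 was near the floor, at 0.355 CPM in shControl and 0.0783 CPM in shCK5. KMT2B fell by only 0.12 on the log2 scale. KDM2A passed in opposite directions under other settings, at -0.09 by library size alone and at 0.07 without shCK5 replicate 3. CXXC5 fell from 86.4 ± 1.93 to 11.5 ± 0.598 CPM, and the DNA demethylase genes TET1 and TET3 fell by 2.26 and 1.25 on the log2 scale.

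In the SET1 complex, in which CXXC1 works, 5 of 8 other genes rose and 1 fell (median 0.16), where 40.9% and 41.7% of all genes did. WDR5 rose by 1.13, WDR82 by 0.76, SETD1A by 0.27, ASH2L by 0.22 and HCFC1 by 0.09 on the log2 scale. SETD1B fell by 0.21, and RBBP5 and DPY30, with log2 differences of -0.01 and -0.06, did not pass. Scaled by library size alone, ASH2L and HCFC1 no longer passed, at 0.08 and -0.04, and the counts became 3 higher and 3 lower, with RBBP5 and DPY30 among the lower.

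Of 6 partners of SKA1, which itself barely differed, 4 rose and 2 fell (median 0.66). SKA2 rose from 7.34 ± 0.644 to 25.5 ± 0.478 CPM and SKA3 from 42.3 ± 1.12 to 67.7 ± 0.567 CPM. In the NDC80 complex, the microtubule-binding core of the kinetochore, NUF2 and SPC24 rose by 1.42 and 0.64 on the log2 scale. NDC80, on chromosome 18, fell from 165.9 ± 6.82 to 63.7 ± 1.90 CPM. SPC25 had a log2 difference of -0.11 (SE 0.0452, edgeR adjusted p = 0.0279). It did not pass without shControl replicate 2 or 3, without shCK5 replicate 1 or 3, with no filter on low counts, or by DESeq2 (adjusted p = 0.0662 to 0.2492 over these).

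Of the other malic enzymes, cytosolic ME1 fell from 50.4 ± 0.613 to 24.8 ± 1.03 CPM and mitochondrial ME3 rose from 3.80 ± 0.219 to 16.5 ± 0.493 CPM. In the list with citrate cycle and pyruvate enzymes 6 of 12 rose and 5 fell (median 0.04), and by library size alone 4 rose and 6 fell. IDH2, the mitochondrial NADP-dependent isocitrate dehydrogenase gene, fell from 123.9 ± 1.41 to 17.0 ± 0.534 CPM. Of the other MEX3 genes, MEX3A fell from 91.7 ± 4.42 to 4.01 ± 0.407 CPM, while MEX3B and MEX3D rose by 0.82 and 0.35 on the log2 scale.

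Among 8 partners of POLI in translesion synthesis, 5 rose and 3 fell (median 0.38). POLH, the closest relative of POLI, rose from 18.8 ± 1.27 to 27.5 ± 0.882 CPM, POLK from 8.19 ± 0.365 to 37.0 ± 1.09 CPM, MAD2L2 by 1.06 and RAD18, the ligase that modifies PCNA at damage, by 1.39 on the log2 scale. REV1, REV3L and PCNA fell by 0.46, 1.25 and 0.46. PRIMPOL rose by 0.20 (edgeR adjusted p = 0.0192). It did not pass without shControl replicate 3 (adjusted p = 0.1325), without shCK5 replicate 2 (0.09497) or by library size alone (0.4288).

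**Figure D4:**
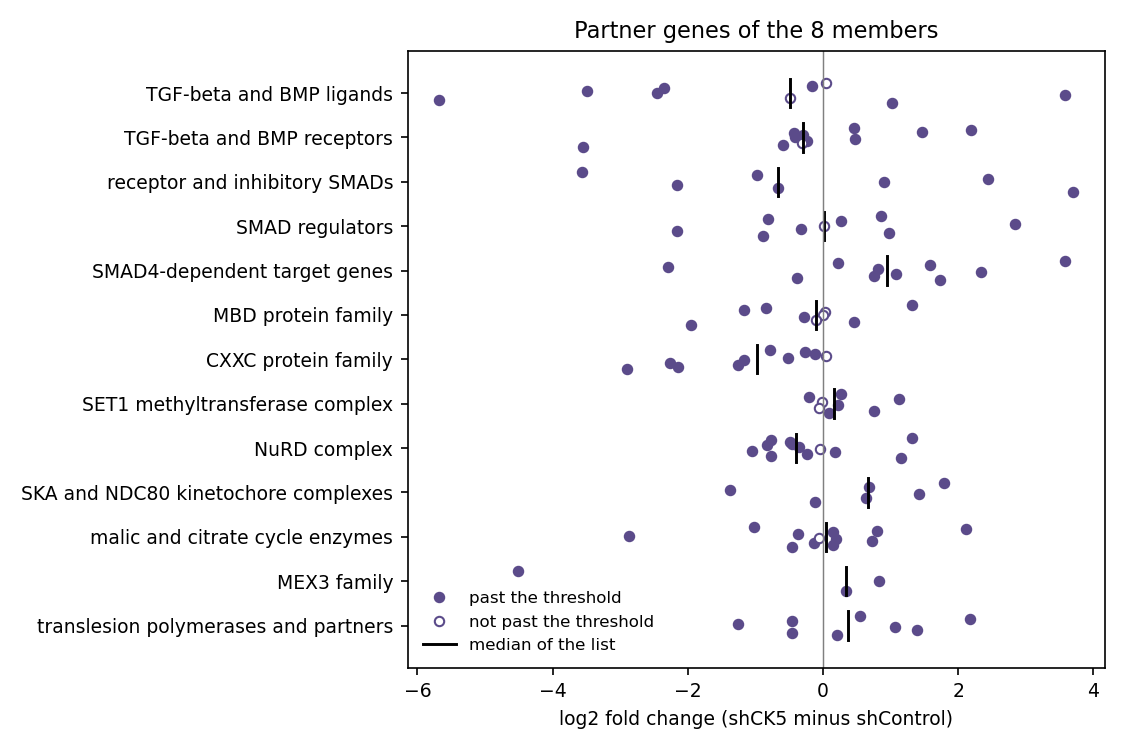
Log2 difference, labelled fold change (shCK5 minus shControl) of the tested genes in 13 lists of partners of the 8 genes. Each point is a gene, filled where its edgeR adjusted p is below 0.05, and black bars are list medians. The SMAD4-dependent targets have a median of 0.94 and the CXXC family one of -0.98, and most lists spread to both sides of 0.

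The 5 genes whose levels over the 6 libraries were most like those of SMAD4 lay on other chromosomes. Chromosome 18 held only 229 of the 16242 tested genes with coordinates, so nothing is read from their location. Likeness was the Euclidean distance between log2 CPM values over the 6 libraries, among all genes tested. The 5 nearest were ANK2 on chromosome 4 (distance 0.961), PLCL2 on chromosome 3 (1.08), CFP on chromosome X (1.09), GCNT1 on chromosome 9 (1.15) and MSRA on chromosome 8 (1.25). ANK2, which encodes an ankyrin, had 0.242, 0.125 and 0.265 CPM in shControl and 11.8, 13.9 and 13.7 CPM in shCK5. The values of these genes are shared with SMAD4 by construction of the search and are no further evidence on it. CCBE1 and CCDC68, the similar genes of chromosome 18, ranked 41 and 85 by this distance.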

How the data were processed

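RNA sequencing was deposited as raw read counts per gene name, which the authors made from sorted alignments, per the file headers. Build GRCh38 and the tools STAR, cutadapt, Cufflinks and SAMtools come from the submitters' processing notes. The counting program, its annotation and strand setting were not stated in the sources read, so reads of antisense or overlapping genes may be mixed. Counts were analysed with R 4.3.3 and edgeR 4.0.16: filterByExpr left 19567 of 56505 rows, TMM factors were 1.043 to 1.056 in shControl and 0.9499 to 0.9587 in shCK5, and glmQLFit and glmQLFTest compared the groups with no covariate, adjusted by Benjamini-Hochberg over all genes tested. The fit was tested on simulated data in which 200 genes were changed. In the real libraries 82.7% of genes passed, so the simulation says nothing on the scaling in that setting. No pair of libraries held identical counts. Of the tested genes, 16242 matched 1 gene of GENCODE v29 (GRCh38) by symbol, which gave coordinates and exon lengths.

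The members and lists were chosen with earlier results of these data known. Named genes were the 8 members, the other genes between them, the 5 nearest detected genes beyond SMAD4 and beyond each end, every gene of lists of up to 8, the 3 called genes with the largest change and at least 1 CPM in longer lists, and the 5 genes nearest to SMAD4 (log2 CPM, prior count 2). Some genes that this rule names are not reported here. Alternatives were other scaling, no filter, DESeq2 1.42.0, a replicate block, each library left out and other CPM limits.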

Additional observations from a re-analysis of the deposited data

How the results depend on the processing

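Under 11 alternatives, SMAD4 kept a log2 difference of 5.74 to 6.50 and each of its 7 neighbours a negative one. The median of the 8 genes was -0.71, -0.85 when scaled by library size alone, and -0.71 to -0.69 with each library left out. Library-size scaling moved the median of all genes from -0.02 to -0.16 and the share of higher genes among those called from 49.5% to 44% (7167 higher and 9118 lower, against 8012 and 8165). Genes called lower on chromosome 18 outside the interval numbered 132 to 140 and those called higher 52 to 59 over the alternatives. Among genes with coordinates, the low stretch held 1 gene under all 14 alternatives, whereas RP11-729L2.2, with none, would be a second low row with detection at 0.5 CPM. SMAD4 was chosen for its low level, and ME2 and MEX3C, at 50.1 and 42.8 CPM in shControl, lie far above every cut-off. The alternatives could therefore hardly have lengthened the stretch, and its constancy is no added support. Same-numbered libraries did not deviate together (correlations of -0.00606, 0.00752 and -0.0033), and not every library correlated best with its own number. A replicate block gave a median of -0.71, with 7918 genes higher and 8008 lower. SMAD4 in shControl rests on 52 counts, and a level below 1 CPM there cannot be told from low background.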

Other observations

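The share of lower genes differed between whole chromosomes, with chromosome 18 among those with the most. Of 23 chromosomes, chromosome 18 ranked 3 by the share called lower in shCK5 by edgeR, with 142 of 229 genes (62%) and a median log2 difference of -0.65. Chromosome 21 came first with 139 of 200 genes (69.5%, median -0.75) and chromosome 22 next with 276 of 404 (68.3%, median -0.60). Chromosomes 10 and 9 stood at the other end, with 169 of 656 (25.8%, median 0.45) and 194 of 688 (28.2%, median 0.56). The neighbours of SMAD4, with log2 differences of -1.31 to -0.05, lay on a chromosome whose median was also below 0. Genes of a chromosome are not independent, and no test was made.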
